A study of Oryza sativa with 6 samples.

Results

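Genes for the synthesis, deactivation, perception and response of gibberellin were read on 6 Affymetrix rice arrays. The listed genes were GA20OX1, GA20OX2, GA20OX3 and GA3OX2 for synthesis, GA2OX1, GA2OX3 and CYP714D1 for deactivation, GID1 and SLR1 for perception, and CIGR1 for response. Each name, with any alias listed, was sought among the symbols of the probe annotation and the symbols and synonyms of a RefSeq table. Case was ignored and a leading Os dropped. A gene was taken when it matched, and every probe set tied to that gene alone was used. Of the 10 listed genes, 6 were found, with 7 probe sets among the 57258 on the array that are not controls. GA20OX1, GA3OX2, GA2OX1 and GA2OX3 did not match by name and were not analysed here. The samples were young uppermost internodes of rice (Oryza sativa), the stem segment below the panicle, from the wild type cultivar Nipponbare and from the line coi1-13, called a mutant in the labels without a word on how it was made. There were 3 arrays of each genotype, given as biological replicates, and neither plant age, growth conditions nor pooling is given. No treatment is named in the labels for either group.

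Gibberellin drives the elongation of rice stems. GA20 oxidases carry out late steps of its synthesis, whereas CYP714D1 and the GA2 oxidases deactivate it. The hormone is bound by the soluble receptor GID1, which then marks the DELLA repressor SLR1 for degradation and so releases growth and gene responses. COI1, after which the coi1-13 genotype is named, is the receptor of jasmonate, and the JAZ proteins that it removes are known to bind DELLA repressors, which links both hormones.

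The values were log2 signals on a scale that the authors had already set to 1 level for all arrays, and the small number of arrays limits their precision. A signal was taken as measured on an array where it lay above all 33 negative control probe sets, the highest of which stood at 4.93 to 5.11 on wild type arrays and at 5.26 to 5.56 on coi1-13 arrays. The genotype could not be checked from transcript levels, since COI1A read 12.66, 12.61 and 12.70 on the wild type arrays and 12.49, 12.56 and 12.59 on the coi1-13 arrays (adjusted p = 0.0582, limma), and COI1B and COI2 did not pass either. All directions therefore rest on the labels. Of 7 stem marker genes, 6 were above the negative controls on every array, among them the secondary wall cellulose synthase genes CESA4, CESA7 and CESA9, while EXPA4 was on no array. These markers do not show that stem tissue alone was sampled. All 9 anther and tapetum genes read below were above the negative controls on every wild type array too, RTS at a mean of 14.40. Their summed linear signal there was 54714 to 55842, beside 45741 to 47018 for the 7 stem markers. Each probe set has its own brightness, so sums of different lists do not compare the amounts of these tissues.

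Among the tested members the largest difference in size was that of CYP714D1, the only deactivation gene measured, which fell in coi1-13. The synthesis gene GA20OX3 and the response gene CIGR1 rose, and CIGR1 had the smallest adjusted p. In perception, GID1 rose slightly and SLR1 fell slightly. GA20OX2 did not pass the test. In all, 3 of the 6 tested probe sets were higher and 2 were lower, at a threshold of 0.05 on p-values adjusted over 34355 probe sets. Over all of those, 16.5% were higher and 19.4% lower, 35.9% together. The 6 stand for 6 different genes. Over 16706 tested genes, each by its brightest tested probe set, 21.2% were higher and 26.7% lower, 47.9% together. The groups did not overlap in 5 of the 6, against 47.5% of all tested probe sets. The seventh probe set, the dimmer of the GID1 pair, lay below the filter on mean signal and was not tested. The median difference of the 6 was 0.03 on the log2 scale, beside -0.01 over all tested probe sets. With so few members these counts are a description only.

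**Figure D1:**
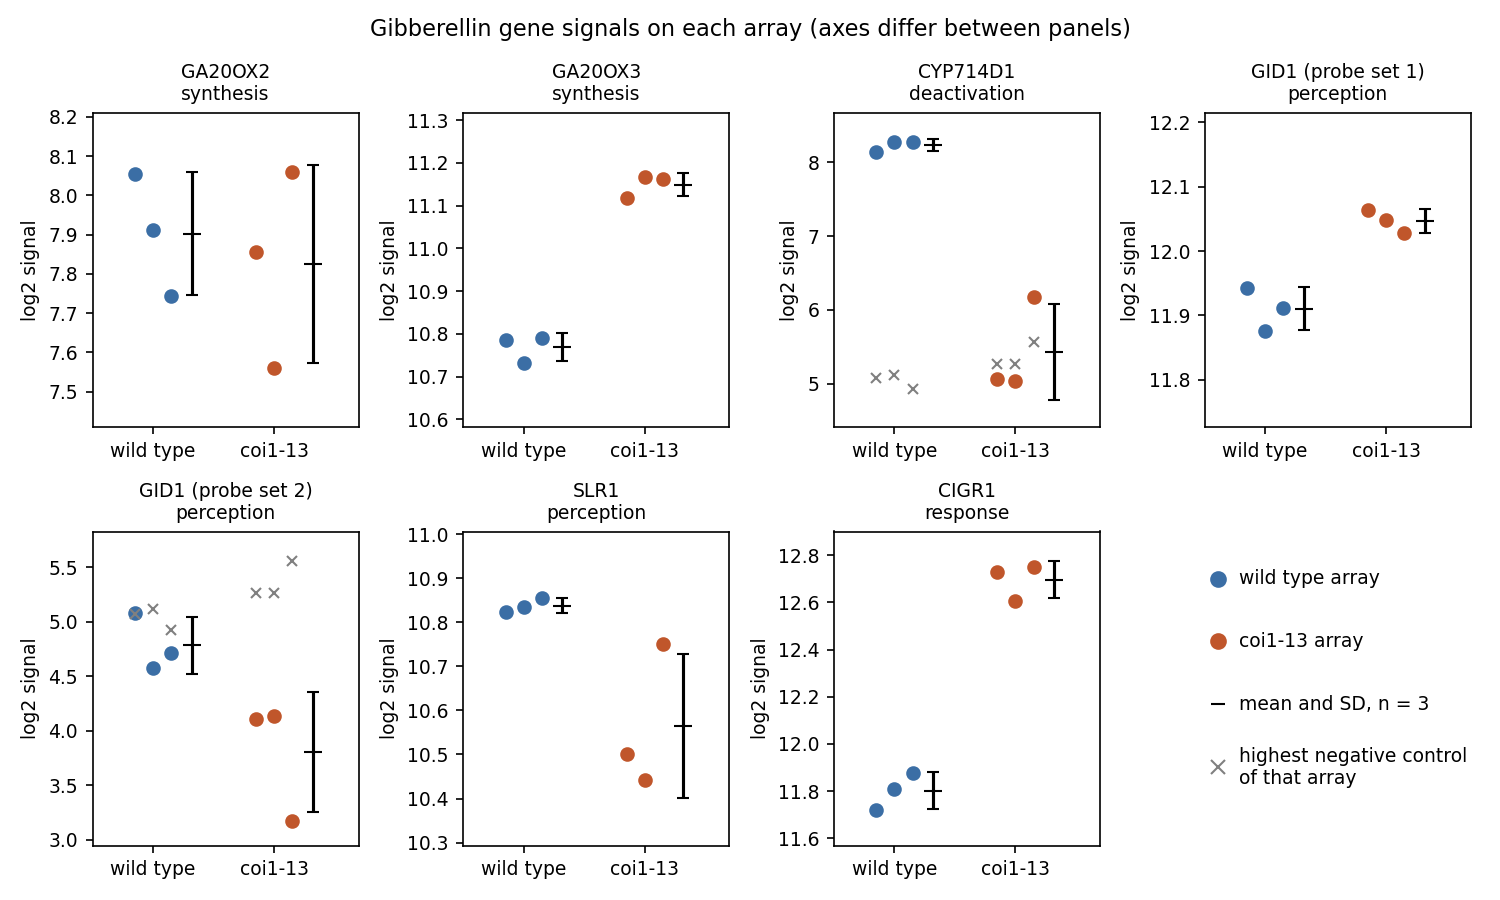
Log2 signal of the 7 gibberellin probe sets on each array (vertical axes, which differ between panels), with blue points for the 3 wild type arrays, orange points for the 3 coi1-13 arrays, black bars for the mean and SD, and grey crosses for the highest negative control of each array where these fall within the axis. CYP714D1 lies between 8.13 and 8.28 in wild type and between 5.04 and 6.18 in coi1-13, and only GA20OX2 has overlapping groups.

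Synthesis was read through a pair of GA20 oxidase genes. GA20OX3 (LOC4342505) had log2 signals of 10.79, 10.73 and 10.79 on the wild type arrays and 11.12, 11.17 and 11.16 on the coi1-13 arrays. All coi1-13 arrays were above all wild type arrays, and the gap was wider than the scatter in either group. The gene rose 1.30-fold, from 10.77 ± 0.03 to 11.15 ± 0.03 (SD, n = 3 each; difference 0.38 ± 0.04, SE; adjusted p = 4.9e-05, limma). Of all tested probe sets, 19.3% had a higher difference, so the change was of a common size on these arrays.

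GA20OX2 (LOC4325003) is the semidwarf gene sd1 of rice breeding, known for its part in stem length. Its log2 signals were 8.05, 7.91 and 7.74 in wild type and 7.86, 7.56 and 8.06 in coi1-13. The groups overlapped, and both the lowest and the highest value came from coi1-13. The difference of -0.08 ± 0.14 (SE) did not pass (adjusted p = 0.724, limma), and its 95% interval ran from -0.40 to 0.24. A change of GA20OX2 as large as the rise of GA20OX3 lay outside that interval in the upward direction only. Without coi1-13 replicate 2 the difference was 0.06, so its sign was not settled.

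Deactivation was read through CYP714D1 (LOC4339131), also called EUI1, a cytochrome P450 gene. In rice, loss of this gene is known to give an elongated uppermost internode, the organ sampled here. Its log2 signals were 8.13, 8.28 and 8.27 on the wild type arrays, well above the negative controls. On the coi1-13 arrays they were 5.07, 5.04 and 6.18. Replicates 1 and 2 of coi1-13 were thus below the highest negative control of their arrays, at 5.26 on each, and only replicate 3 was above its own, at 5.56.

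The mean of CYP714D1 went from 8.23 ± 0.08 to 5.43 ± 0.65 (SD, n = 3 each), a difference of -2.80 ± 0.28 (SE; 95% interval -3.42 to -2.17; adjusted p = 2.4e-05, limma). Taken as a ratio of these means this is 6.95-fold, but the coi1-13 mean rests on 1 measured array. With values under the highest negative control raised to that control, an alternative chosen after the data were seen, the difference was -2.66 (adjusted p = 4.6e-06, limma). Without coi1-13 replicate 3 it was -3.17. In such samples fewer cells that express a gene and less RNA in each cell cannot be told apart.

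The neighbourhood of CYP714D1 in gene order was looked at after its fall was known. Of the 3 nearest tested genes on each side, 6 in all, 4 were lower in coi1-13, by 0.23 to 0.51 on the log2 scale, none was higher and 2 did not pass (limma), where 26.7% of all tested genes were lower. All were thus smaller than the difference of -2.80 for CYP714D1. A difference in sequence between the genotypes under the CYP714D1 probes was not tested.

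Perception was read at the receptor and at its target. For GID1 (LOC4338764), the brighter of its probe sets read 11.94, 11.88 and 11.91 in wild type and 12.06, 12.05 and 12.03 in coi1-13. The groups did not overlap, but they lay close together. GID1 rose 1.10-fold, from 11.91 ± 0.03 to 12.05 ± 0.02 (SD, n = 3 each; difference 0.14 ± 0.04, SE; adjusted p = 0.0137, limma). This call did not hold when each array was centred on its own median (0.02, adjusted p = 0.852), a scaling that moved the median difference of all tested probe sets from -0.01 to -0.13. It was also lost without the variance trend (adjusted p = 0.0822) and without wild type replicate 2 (adjusted p = 0.0520).

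The other GID1 probe set read 5.08, 4.57 and 4.71 in wild type and 4.11, 4.14 and 3.17 in coi1-13. It was above the negative controls on 1 wild type array and on no coi1-13 array. It therefore gives no fold, and the brighter probe set alone stood for the receptor.

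SLR1 (LOC4333860), the DELLA repressor that the receptor removes, read 10.82, 10.83 and 10.86 on the wild type arrays. On the coi1-13 arrays it read 10.50, 10.44 and 10.75, with replicate 3 nearest to wild type. SLR1 fell by 0.27 ± 0.07 (SE) on the log2 scale, from 10.84 ± 0.02 to 10.56 ± 0.16 (SD, n = 3 each; adjusted p = 0.0132, limma). Here coi1-13 replicate 3 was also the array on which CYP714D1 was least reduced. That array differed as a whole, with a median log2 signal of 5.75 beside 5.64 and 5.62 on the other coi1-13 arrays. Its highest negative control was at 5.56, beside 5.26 on each of those. Within coi1-13, GA20OX2 (8.06) and CIGR1 (12.75) were also highest on replicate 3. GID1 (12.03) was lowest there, and GA20OX3 (11.16) lay between its values on the other coi1-13 arrays. The source of these differences was not tested. The SLR1 call was lost without coi1-13 replicate 2 (-0.21, adjusted p = 0.0523) and without the variance trend (adjusted p = 0.0835), while median centring gave -0.39 (adjusted p = 0.00038). These are transcript levels, and SLR1 is known to be controlled as a protein, which the arrays do not measure.

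Response was read through CIGR1 (LOC4343521), a GRAS family gene known in rice to be induced by chitin and by gibberellin. Its log2 signals were 11.72, 11.81 and 11.88 in wild type and 12.73, 12.61 and 12.75 in coi1-13. Every coi1-13 array exceeded every wild type array by more than the range within either group. CIGR1 rose 1.86-fold, from 11.80 ± 0.08 to 12.70 ± 0.08 (SD, n = 3 each; difference 0.89 ± 0.05, SE; adjusted p = 4.1e-07, limma). A higher difference was found for 6.38% of tested probe sets. The call held under every alternative except the requirement of a difference of 1 on the log2 scale. Whether any of its inducers differed between the genotypes was not measured.

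**Figure D2:**
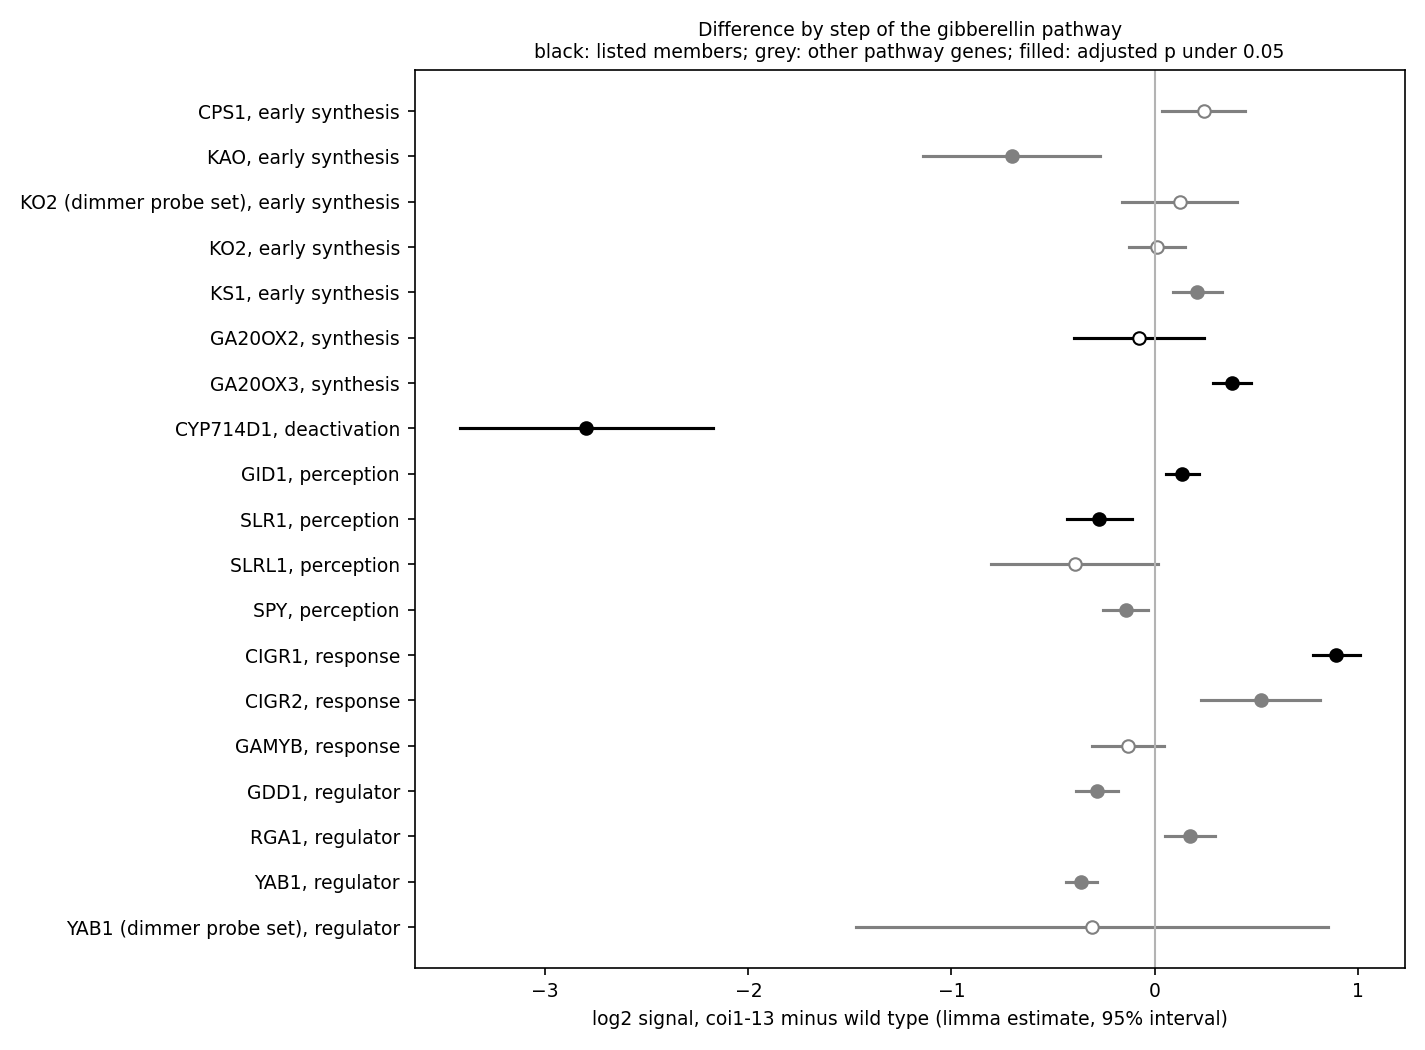
Difference in log2 signal, coi1-13 minus wild type (horizontal axis), for each tested probe set of the gibberellin pathway in order of step (vertical axis), with the limma estimate as a point and its 95% interval as a line. Filled points have an adjusted p under 0.05; CYP714D1 stands at -2.80 while the other points lie between -0.70 (KAO) and 0.89 (CIGR1).

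The rest of the pathway was read from a list of 49 further genes, of which 12 had a probe set of their own under the same naming rule. Of these, 11 were tested, each by its brightest probe set, and 3 were higher, 4 were lower and 4 did not pass. Over 16706 tested genes, 21.2% were higher and 26.7% lower, 47.9% together. The median difference of the 11 was -0.13, beside -0.04 over all tested genes. The balance between directions rested on the scaling, since 1 of the 11 was higher and 6 were lower when each array was centred on its median.

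In early synthesis, KS1, the kaurene synthase gene, rose 1.16-fold, from 10.42 ± 0.09 to 10.63 ± 0.02 (SD, n = 3 each; adjusted p = 0.0116, limma), on a probe set that its suffix marks as shared between similar transcripts. KAO, which encodes kaurenoic acid oxidase, fell 1.63-fold, from 7.42 ± 0.27 to 6.71 ± 0.28 (SD, n = 3 each; adjusted p = 0.0170, limma). These genes of early steps thus differed in opposite directions. Median centring ended the KS1 call (adjusted p = 0.343), and that of KAO without wild type replicate 2 (adjusted p = 0.0747) or coi1-13 replicate 2 (adjusted p = 0.0588). CPS1, the copalyl diphosphate synthase gene of the first committed step, read 9.05, 8.78 and 8.72 in wild type and 9.15, 9.06 and 9.06 in coi1-13 and did not pass (adjusted p = 0.0673, limma), although it did without wild type replicate 1 (0.34, adjusted p = 0.00988). KO2, a kaurene oxidase gene whose locus carries names of a neighbouring copy in the annotation, differed by 0.01 and 0.12 on its pair of probe sets, and neither passed. The suffix of both KO2 probe sets marks probes that may also bind other sequences.

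Among perception and signalling genes, SPY, known from Arabidopsis as a negative regulator of the gibberellin response, fell by 0.14 on the log2 scale (adjusted p = 0.0439, limma). SPY kept no call once an array was dropped, whichever it was (adjusted p up to 0.123). It was lost as well with the replicate number as a block (adjusted p = 0.0790). The same held for quantile normalization (adjusted p = 0.0639) and for a fit without the filter on mean signal (adjusted p = 0.0578). SLRL1, a gene related to SLR1, read 7.11, 6.93 and 7.42 in wild type and 6.62, 7.02 and 6.64 in coi1-13. The groups overlapped, and the difference of -0.39 did not pass (adjusted p = 0.130, limma), though it did after median centring (-0.51, adjusted p = 0.0488).

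Among response genes, CIGR2, the GRAS family relative of CIGR1, read 8.02, 8.26 and 8.32 in wild type and 8.99, 8.69 and 8.49 in coi1-13. It rose 1.44-fold (adjusted p = 0.0101, limma), with more scatter than CIGR1. GAMYB, a MYB factor gene of the gibberellin response in aleurone and anther, differed by -0.13 and did not pass (adjusted p = 0.239, limma), but it was lower under median centring (-0.25, adjusted p = 0.0293). The GAMYB probe set carries the same suffix as those of KO2. The alpha-amylase gene AMY1A, a classical gibberellin target in germinating grain, stayed within the range of the negative controls throughout and was not tested.

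Among genes that act on gibberellin levels or signals from outside the pathway, YAB1, a YABBY factor gene, fell 1.28-fold, from 13.49 ± 0.03 to 13.13 ± 0.03 (SD, n = 3 each; adjusted p = 1.4e-05, limma). The suffix of the YAB1 probe set behind this fall marks it, like that of KS1, as shared between similar transcripts. A much dimmer YAB1 probe set, above the negative controls on 2 wild type arrays and 1 coi1-13 array, did not pass (adjusted p = 0.696, limma). GDD1, a kinesin gene annotated as KIN4A whose mutant is known as a gibberellin-deficient dwarf, fell by 0.28 on the log2 scale (adjusted p = 0.000772, limma). RGA1, the G protein alpha subunit gene, rose by 0.17 (adjusted p = 0.0291, limma), but by 0.05 after median centring, which did not pass (adjusted p = 0.603). Without wild type replicates 2 or 3 or coi1-13 replicate 2 its adjusted p-values were 0.0670, 0.0903 and 0.102.

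Members were also set against each other within each array, which removes any scaling of the whole array. Here 4 pairs were compared, chosen with the single differences known. The log2 ratio of GA20OX3 to CYP714D1 was 2.65, 2.45 and 2.52 on the wild type arrays and 6.05, 6.12 and 4.98 on the coi1-13 arrays, a shift of 3.18. CYP714D1 was above the negative controls on only 1 of those coi1-13 arrays, so the other 2 ratios, and with them the size of this shift, are set by a signal not above background. No such ratio has a meaning as a level, since each probe set has its own brightness. The ratio of GID1 to SLR1 was 1.12, 1.04 and 1.06 in wild type and 1.56, 1.60 and 1.28 in coi1-13, a shift of 0.41. The ratios of GA20OX3 to GA20OX2 and of CIGR1 to CIGR2 shifted by 0.46 and 0.37. In all 4 pairs the groups did not overlap. As the pairs were chosen with the single differences known, this was likely in advance, and no share over other pairs was computed. The margin was narrow for GA20OX3 to GA20OX2 (wild type up to 3.05, coi1-13 from 3.10) and for CIGR1 to CIGR2 (up to 3.69, from 3.74). The exact permutation p was 0.1 for each pair, two-sided and the same after Benjamini-Hochberg adjustment over the 4. That is the smallest that 3 arrays against 3 can give, so this design could not reach 0.05.

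**Figure D3:**
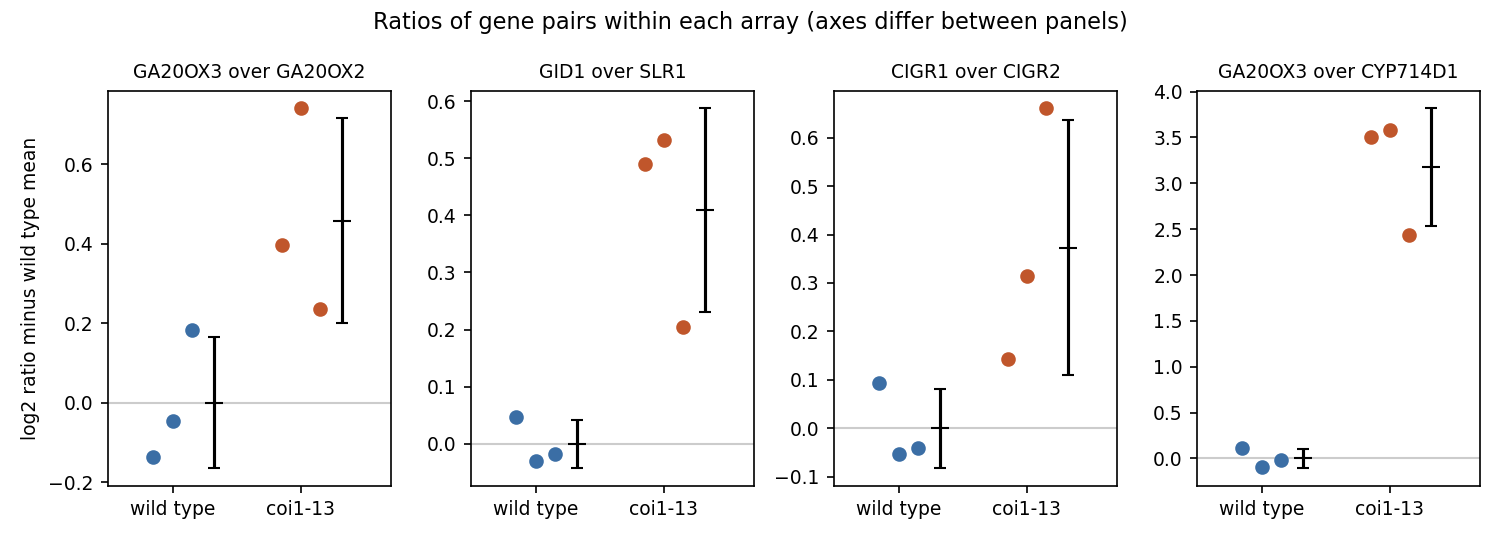
Log2 ratio of the signals of gene pairs within each array, minus the wild type mean of that ratio (vertical axes, which differ between panels), for 3 wild type arrays (blue), 3 coi1-13 arrays (orange) and the mean with SD (black). The coi1-13 means lie at 0.46, 0.41, 0.37 and 3.18 from left to right, without overlap between groups, in pairs chosen with the single differences known. In the last panel 2 of the 3 coi1-13 points rest on a CYP714D1 signal not above the negative controls.

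Genes with patterns most like those of CYP714D1 and CIGR1 were sought among 2911 tested probe sets of other named genes, by Pearson's r over the 6 arrays. For CYP714D1 they were LOX1.1 (r = 0.997), SPP30-like (r = 0.995) and the chalcone synthase gene CHS (r = 0.995). The CYP714D1 values of coi1-13 replicates 1 and 2 behind these r lay below the highest negative control of their arrays. LOX1.1 differed by -0.44 and did not pass (adjusted p = 0.0617, limma), and SPP30-like differed by -0.27. CHS read 14.14, 14.15 and 14.17 in wild type and 13.96, 13.97 and 14.04 in coi1-13, so it shared the higher value of coi1-13 replicate 3 but differed by only -0.16. For CIGR1 they were GWD3 (r = 0.999), ERR26 (r = 0.998) and C3H50 (r = 0.998), with differences of 0.29, 0.91 and 0.33. These values describe 6 arrays in 2 groups, where any steady difference between the groups gives a high r. An r over 0.99 was found for 19 of the 2911 probe sets with CYP714D1 and for 67 with CIGR1.

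Markers of neighbouring tissues differed on the same arrays, where 21.2% of all tested genes were higher and 26.7% lower. The marker lists were chosen with earlier results of these data known. Of 9 genes of anther and tapetum, all were measured on every wild type array. In coi1-13, 8 were lower, none was higher and 1, RTS, did not pass. The median difference of the 9 was -0.63 on the log2 scale, from -3.04 for CYP703A3 to -0.11 for C6 and RTS. Their summed linear signal was 54714 to 55842 in wild type and 42882 to 46379 in coi1-13. All 6 tested stem markers were lower as well, by a median of 0.27, with summed signals of 45741 to 47018 and 37267 to 39854 over the 7. Of 6 leaf markers, 3 were higher, 1 was lower and 2 did not pass, and their sum was 60969 to 62503 in wild type and 70289 to 72758 in coi1-13. These counts and sums used the brightest probe set of each gene. The 2 that did not pass, CAB2R and RCA, each had a dimmer probe set that was lower. These differed by -0.18 (adjusted p = 0.0079, limma) and -0.22 (adjusted p = 0.0075, limma). The other tested RCA probe sets did not pass, and the other tested RBCS probe sets were higher. Of the anther markers, PTC1 was above the negative controls on 2 coi1-13 arrays and the others on all 3. The part of tissue makeup in the falls of CYP714D1, SLR1 and YAB1 and in the rises of GA20OX3 and CIGR1 was not tested.

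**Figure D4:**
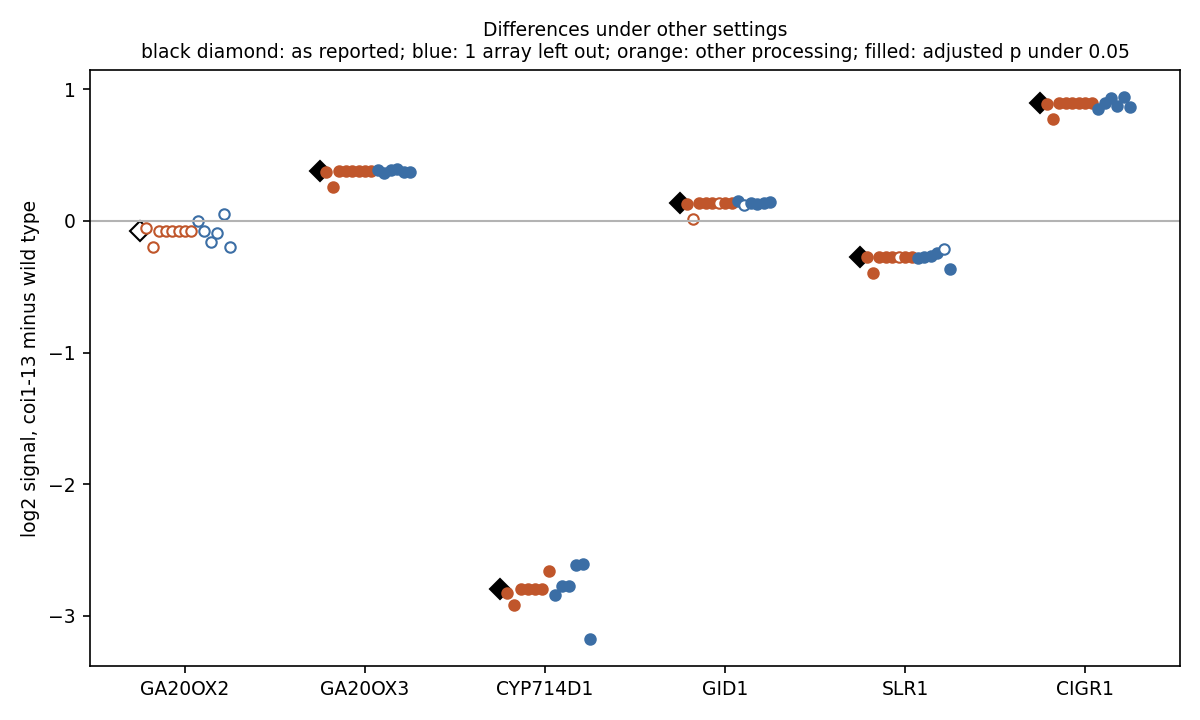
Difference in log2 signal, coi1-13 minus wild type (vertical axis), for the 6 tested members under each setting, with black diamonds for the reported value, blue points with 1 array left out, orange points for other processing, and filled points for an adjusted p under 0.05. CYP714D1 stays between -3.17 and -2.60 and CIGR1 between 0.77 and 0.94, whereas GID1 and SLR1 have open points and GA20OX2 lies on both sides of 0.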

How the data were processed

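The authors deposited log2 signals of 57381 probe sets, made with GCOS 1.4 per the submitters' processing notes; no other step is given in the sources used here. The trimmed mean of the unlogged signals (2% off each tail) was 500.07 on every array, so the authors had scaled them to 1 level. No 2 of the 6 arrays held the same values, and arrays of a group correlated at r of 0.977 to 0.980 across probe sets. The platform annotation tied 22436 probe sets to 1 gene and 95 to several. Names came from a RefSeq table of assembly ASM3414082v1, used for names and gene order only, and a name shared by several genes was left out, GID2 and KO1 among them.

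The test was limma 3.58.1 (R 4.3.3; lmFit, then eBayes with a variance trend) on the log2 values as deposited, for coi1-13 against wild type. It covered 34355 probe sets, the 60% with the highest mean signal (at least 4.37), with Benjamini-Hochberg adjustment over all of them; 123 controls were left out. A fold is 2 to the power of the log2 difference. The fit was tested on simulated data. Members, lists and rules were chosen with earlier results of these data known. The naming rule covered all members, all called pathway genes and the 3 genes most like CYP714D1 and CIGR1; other genes were named after their values were seen. If the replicates shared 1 planting, p-values measure only the spread between these samples. Same-numbered replicates of both groups did not deviate together (r of -0.003 to 0.001), so no block was used. No sequences are shown here.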

Additional observations from a re-analysis of the deposited data

How the results depend on the processing

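The calls of GA20OX3, CYP714D1 and CIGR1 held under all alternatives that tested them, except that a required difference of 1 on the log2 scale removed those of GA20OX3 and CIGR1. That requirement left 1188 probe sets higher and 686 lower on the whole array, 0 members higher and 1 lower, and 0 pathway genes higher and 0 lower. Median centring left 3721 probe sets higher against 9522 lower (28.1% of calls higher, against 46.0%) with 2 members higher and 2 lower, and 1 pathway gene higher and 6 lower; SLRL1 and GAMYB gained calls as lower there. Without the variance trend 1 member and 2 pathway genes were lower and 0 pathway genes were higher, with the calls of KS1, KAO, SPY, CIGR2 and RGA1 lost (adjusted p from 0.0540 for KAO to 0.115 for RGA1). In the upper 40% by mean signal 1 member was lower, since CYP714D1 was no longer tested there. With 1 array left out, 1 to 2 members and 2 to 3 pathway genes were lower, 2 to 3 members and 2 to 4 pathway genes were higher, and whole-array counts ran from 4917 to 5275 higher and 5647 to 6123 lower. The replicate block gave 3 members higher and 2 lower, 4 and 3 pathway genes, and 5481 and 6336 probe sets; it ended the call of SPY and made one of CPS1 (0.24, adjusted p = 0.0494), as did quantile normalization (adjusted p = 0.0457). Signs turned, without a call. With 1 array left out, GA20OX2 ran from -0.195 to 0.0551, the KO2 probe sets from -0.0119 to 0.206 and from -0.0235 to 0.0432, and the dim YAB1 probe set from -0.723 to 0.205. The brighter KO2 probe set stood at -0.106 under median centring, and the dim YAB1 probe set at 0.178 with values raised to the highest negative control of their array, an alternative chosen after seeing the data. The causes were not tested. Signals near the negative controls limit the size of the CYP714D1 fall.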
